A study of Mus musculus with 4 samples.

Results

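The 75 V segments of the T cell receptor (TCR) α and β chains were described here in single YFP+CD4+ T cells of the small intestine. They were chosen by name, as every row of the deposited table whose symbol begins with *Trav* or *Trbv*, and make up 56 α and 19 β segments of the 13265 genes listed. Cells came from 7- to 8-month-old mice on a C57BL/6 background that carried *Il17a-cre* and *Rosa26-stop-yfp*, so that YFP marked cells that had once expressed *Il17a*, whatever they expressed when they were sorted. In TGFβR-KO mice the same Cre deleted floxed alleles of *Tgfbr2*, in TGFβR-CA mice it switched on a constitutively active form of *Tgfbr1* placed behind a floxed stop cassette, and TGFβR-WT mice carried neither. Each library came from a pool of mice, with 1 library for TGFβR-KO (2975 cells), 1 for TGFβR-CA (1098 cells) and 2 for TGFβR-WT (1007 cells). Cell names of TGFβR-WT had 2 different endings, here called the larger set (709 cells) and the smaller set (298 cells), and neither is tied by the labels to one of the TGFβR-WT samples. Both mutant conditions rest on a single sample and TGFβR-WT cells are not tied to their 2 samples, so no test between conditions was made, and mice within a pool cannot be told apart.

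Every αβ T cell assembles its receptor by joining 1 V segment to a J segment and a constant gene in the α chain, and a V, a D and a J segment and a constant gene in the β chain. The choice is made once in the thymus for the β chain, often more than once for the α chain, and is inherited by all daughter cells, so cells that share both V segments may descend from 1 parent or may have made the same choice independently. The V segment lies at the 5′ end of the transcript, and the labels name a 3′ protocol. A cell with no V segment in these data is a cell in which none was read.

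In the GENCODE annotation of mm10 (GRCm38) the α segments lie at chr14:52567198-53876752 and the β segments at chr6:40891229-41558452. Of each chain, 1 member is annotated as a pseudogene, *Trav8-2* and *Trbv24*. The main V exon spans 264 to 312 bases, and it is annotated as coding throughout in 73 of 75 members. The exons of 7 segments on which the results below turn are printed from that assembly, with capitals from the last in-frame cysteine codon to the end of the exon, the germline start of the third complementarity-determining region. The first pair was read together in 14 TGFβR-KO cells, of which 5 were named CTL.
Trav2 (chr14:52567767-52568051, + strand): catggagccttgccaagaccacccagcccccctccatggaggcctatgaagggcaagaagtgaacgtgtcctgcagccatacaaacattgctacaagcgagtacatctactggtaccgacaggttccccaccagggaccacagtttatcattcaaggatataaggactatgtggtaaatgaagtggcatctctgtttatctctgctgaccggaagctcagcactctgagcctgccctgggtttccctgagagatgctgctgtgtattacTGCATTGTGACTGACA
Trbv3 (chr6:41048529-41048828, + strand): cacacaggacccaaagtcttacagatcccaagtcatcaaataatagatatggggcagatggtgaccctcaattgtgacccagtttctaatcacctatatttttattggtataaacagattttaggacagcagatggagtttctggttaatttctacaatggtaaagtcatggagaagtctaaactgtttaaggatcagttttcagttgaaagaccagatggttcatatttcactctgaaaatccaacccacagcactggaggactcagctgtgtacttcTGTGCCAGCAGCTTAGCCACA
The next pair had its largest use in TGFβR-KO cells named Tumorigenic. Of the 301 bases of the *Trav16* exon, and of the 302 of the *Trbv3* exon above, the last 300 are shown.
Trav16 (chr14:53743406-53743705, + strand): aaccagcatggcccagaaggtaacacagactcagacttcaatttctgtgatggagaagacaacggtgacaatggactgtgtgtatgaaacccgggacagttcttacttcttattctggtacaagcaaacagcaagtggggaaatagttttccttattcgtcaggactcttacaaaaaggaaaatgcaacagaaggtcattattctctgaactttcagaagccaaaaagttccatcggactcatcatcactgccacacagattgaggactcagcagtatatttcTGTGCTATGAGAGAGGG
Trbv15 (chr6:41141361-41141658, + strand): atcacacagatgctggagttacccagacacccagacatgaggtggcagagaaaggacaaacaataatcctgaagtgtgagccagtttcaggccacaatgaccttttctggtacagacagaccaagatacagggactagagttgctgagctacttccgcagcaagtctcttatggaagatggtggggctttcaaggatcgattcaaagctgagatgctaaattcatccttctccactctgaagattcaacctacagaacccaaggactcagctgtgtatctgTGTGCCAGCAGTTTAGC
The last 3 were read together in TGFβR-CA cells.
Trav14n-3 (chr14:53370296-53370575, + strand): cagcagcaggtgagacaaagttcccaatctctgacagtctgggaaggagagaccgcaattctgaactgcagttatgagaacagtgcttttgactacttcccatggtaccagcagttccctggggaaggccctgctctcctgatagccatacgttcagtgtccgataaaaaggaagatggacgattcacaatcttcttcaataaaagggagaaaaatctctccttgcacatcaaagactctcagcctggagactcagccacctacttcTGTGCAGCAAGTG
Trav6-7-dv9 (chr14:53710128-53710419, + strand): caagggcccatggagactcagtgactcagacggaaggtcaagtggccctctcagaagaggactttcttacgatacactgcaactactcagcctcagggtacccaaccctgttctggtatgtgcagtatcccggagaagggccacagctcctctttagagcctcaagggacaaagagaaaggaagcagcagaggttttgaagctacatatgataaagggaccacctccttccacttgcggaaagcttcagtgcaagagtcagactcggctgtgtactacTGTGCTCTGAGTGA
Trbv2 (chr6:41047701-41047995, + strand): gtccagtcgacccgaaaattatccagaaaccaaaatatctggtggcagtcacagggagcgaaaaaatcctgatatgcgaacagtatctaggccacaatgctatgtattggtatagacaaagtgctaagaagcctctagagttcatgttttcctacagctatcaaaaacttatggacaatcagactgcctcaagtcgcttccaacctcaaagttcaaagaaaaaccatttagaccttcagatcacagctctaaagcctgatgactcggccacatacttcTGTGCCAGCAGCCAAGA
Many mouse α segments exist in near-identical copies, marked d or n in their names, because part of the locus is duplicated. Among the members, 30 have such a copy also listed, in 24 pairs whose exons share 91.3% to 99.7% of their bases, with a median of 98.0% and 1 to 24 mismatches. Counts of these segments are uncertain as far as reads could be split between copies.

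The deposited values are natural logs of 1 plus UMIs that the authors corrected with SCTransform, where a UMI stands for 1 captured molecule. After the log was undone, the median cell held 3440 to 3984.5 corrected UMIs in the 4 sets. A gene listed at 0 in a set was not shown to be absent, since the table lists 611 of all genes at 0 in TGFβR-KO, 1999 in the larger and 3253 in the smaller TGFβR-WT set, and 1753 in TGFβR-CA. The targeted genes gave no check of the labels: *Tgfbr2* was above 0 in 40.4% of TGFβR-KO cells against 40.3% and 48.0% of the TGFβR-WT sets, and the table does not tell reads of the deleted exons from others. *Tgfbr1* was above 0 in 19.7% of TGFβR-CA cells, 7.76% of TGFβR-KO cells, and 11.7% and 58.1% of the TGFβR-WT sets. According to the methods, TGFβR-KO and TGFβR-WT cells were sequenced in a first batch and TGFβR-CA and TGFβR-WT cells in a second. Both batches thus held TGFβR-WT cells, but the endings of their names are not tied to a sample or batch, so no comparison within a batch was made. Between sets, 16 cell barcodes were shared, 10 of them with a V segment in any of their cells and 2 with the same segment in each.

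The cells carried the marks of αβ T cells. *Trac*, the constant gene of the α chain, was above 0 in 96.5% to 98.4% of cells of the 4 sets, *Trbc2*, a constant gene of the β chain, in 98.0% to 99.5%, and *Cd3d*, *Cd3e* and *Cd3g*, which encode signaling chains of the receptor complex, in 95.2% to 98.9%. *Cd4* was above 0 in 70.5% to 81.9% of cells, whereas *Cd8a* reached 0.202% in TGFβR-KO and was listed at 0 elsewhere, and *Cd8b1* was above 0 in 1.28% of TGFβR-KO cells, 0.564% and 0.671% of the larger and smaller TGFβR-WT sets, and 1.18% of TGFβR-CA cells. *Trdc*, the constant gene of the δ chain, was above 0 in 0.364% to 1.68% of cells, and *Tcrg-C1*, *Tcrg-C2* and *Tcrg-C4* of the γ chain were listed at 0 in every set. According to the methods, the authors had removed γδ T cells by *Tcrg* and *Trg* genes, and also epithelial cells. Low values of γδ and epithelial genes are thus no independent mark of the cells sorted. Markers of other cells were rare, with each of the 3 listed B cell genes above 0 in at most 3.103% and each of 4 epithelial genes in at most 1.38% of cells of a set. Of the 2 listed myeloid genes, *Lyz2* reached 0.437%, while *Cst3*, which many cell types express, was above 0 in 46.4% to 52.3% of cells of the 4 sets. No cell type without a TCR is in the table, so the level that free RNA gives in a droplet could not be measured. *Trav11* and *Trav1*, used by invariant T cells, are not among the listed segments, so their use could not be read.

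Each chain was read in a minority of cells and most often in TGFβR-CA. An α segment was above 0 in 23.7% of TGFβR-KO cells (704 cells, 95% interval 22.1 to 25.2), 21.3% of the larger TGFβR-WT set (151 cells, 18.3 to 24.5), 3.69% of the smaller set (11 cells, 1.86 to 6.51) and 31.3% of TGFβR-CA cells (344 cells, 28.6 to 34.2). A β segment was above 0 in 24.6% of TGFβR-KO cells (732 cells, 23.1 to 26.2), 30.9% of the larger set (219 cells, 27.5 to 34.4), 11.4% of the smaller set (34 cells, 8.03 to 15.6) and 48.8% of TGFβR-CA cells (536 cells, 45.8 to 51.8). A segment of either chain was above 0 in 41.4% of TGFβR-KO cells (1232 cells, 39.6 to 43.2), 44.7% of the larger set (317 cells, 41.0 to 48.5), 14.1% of the smaller set (42 cells, 10.4 to 18.6) and 64.7% of TGFβR-CA cells (710 cells, 61.8 to 67.5). For the β chain the 4 intervals did not overlap, and the TGFβR-WT sets stood further from each other than TGFβR-KO from the larger set. These exact binomial intervals cover counting error only, since cells of a pool are not replicates. The smaller set listed 8 of the 75 segments above 0, against 37 in the larger set, 63 in TGFβR-KO and 58 in TGFβR-CA. Over the 7 segments above 0 in every set, the share of cells with any of them was 14.5% in TGFβR-KO, 19.3% and 13.4% in the larger and smaller TGFβR-WT sets, and 28.4% in TGFβR-CA, and the intervals of the smaller set and TGFβR-KO overlapped (9.77 to 17.8 and 13.2 to 15.8).

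V segments also took the largest part of corrected UMIs in TGFβR-CA. All V segments together made up 3.56 of 10000 corrected UMIs in TGFβR-CA, 1.74 in TGFβR-KO, and 2.05 and 0.552 in the larger and smaller TGFβR-WT sets. A single UMI was the value of 65.5% of positive values in TGFβR-CA, 82.1% in TGFβR-KO, and 81.9% and 64.4% in the larger and smaller TGFβR-WT sets. *Cd247*, the ζ chain of the receptor complex, was likewise above 0 most often in TGFβR-CA (11.9%, against 4.67% in TGFβR-KO and 7.19% and 4.03% in the TGFβR-WT sets), and its part in these values was not tested. Both an α and a β segment were read in 204 TGFβR-KO cells (6.86%), 53 cells of the larger and 3 of the smaller TGFβR-WT set, and 170 TGFβR-CA cells (15.5%).

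The β segments used most were shared between conditions. Use is given as the positive cells of a segment over the positive calls of its chain, of which there were 791 for the β chain in TGFβR-KO, 238 and 34 in the TGFβR-WT sets, and 587 in TGFβR-CA. *Trbv3* led in TGFβR-KO with 17.2% of calls (14.6 to 20.01), followed by *Trbv2* and *Trbv12-2* with 15.7% each, *Trbv31* with 9.86% and *Trbv13-2* with 8.60%. In the larger TGFβR-WT set *Trbv12-2* led with 13.9% (9.74 to 18.9), followed by *Trbv20* with 11.3%, *Trbv2* with 10.5%, *Trbv3* with 10.1% and *Trbv19* and *Trbv31* with 9.66% each. In TGFβR-CA *Trbv31*, which lies downstream of the constant genes and is read from the opposite strand, led with 15.0% (12.2 to 18.1), followed by *Trbv12-2* with 13.6%, *Trbv3* with 13.5%, *Trbv2* with 11.4% and *Trbv13-2* with 9.03%. The smaller set held *Trbv12-2* in 14 cells, *Trbv2* in 10, *Trbv13-2* in 5, *Trbv20* in 3 and *Trbv31* in 2. Likeness of use was measured by the Morisita index, which is near 1 for the same proportions and 0 for no shared segment. Over the 14 β segments above 0 in TGFβR-KO, the larger set and TGFβR-CA, it lay between 0.939 and 0.956 for the 3 pairs.

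**Figure D1:**
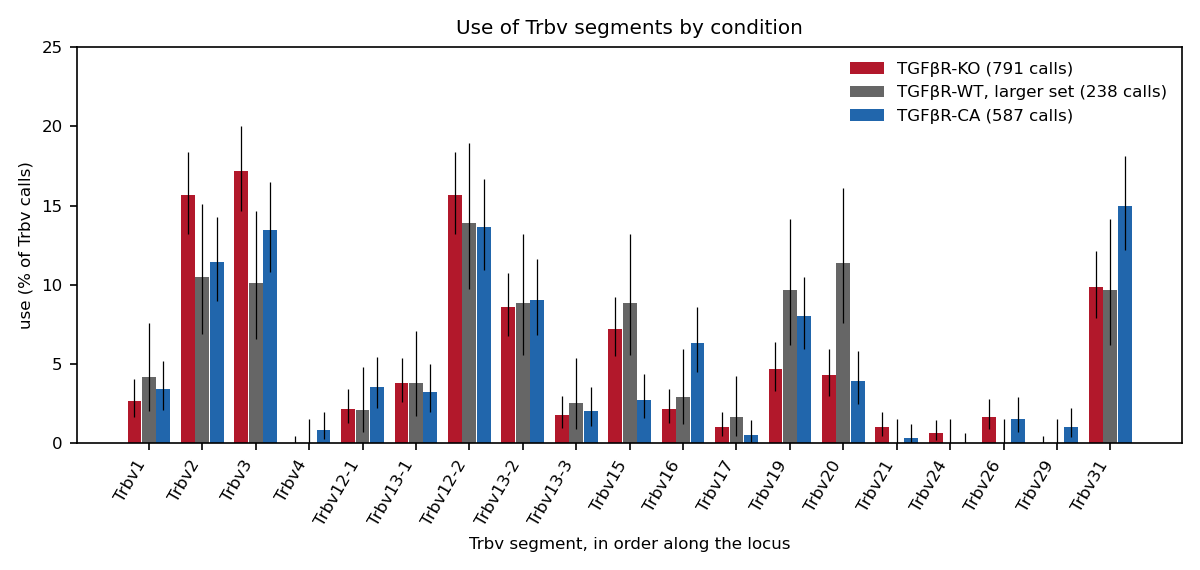
Use of each of the 19 β segments as a percentage of all β calls of the set (vertical axis), in locus order (horizontal axis), for TGFβR-KO, the larger TGFβR-WT set and TGFβR-CA, with exact 95% intervals that cover counting error only. *Trbv3* stands at 17.2% in TGFβR-KO and *Trbv31* at 15.0% in TGFβR-CA, while *Trbv12-2* is among the most used in all 3 sets.

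The α segments used most differed more between conditions, and several of them were listed at 0 elsewhere. *Trav8n-2* led in TGFβR-KO with 95 of 788 α calls (12.1%, 9.86 to 14.5) and was listed at 0 in both TGFβR-WT sets and in TGFβR-CA. It was followed by *Trav6-7-dv9* with 72 cells, *Trav3-3* with 56, *Trav2* with 34 and *Trav4-3* with 33. *Trav4-3* was read with 2.24 corrected UMIs per positive cell and up to 11 in a cell, above the 1.07 of *Trav8n-2*. In the larger TGFβR-WT set *Trav14-2* led with 19 of 165 calls (11.5%, 7.08 to 17.4), followed by *Trav3-3* with 13, *Trav5-1* and *Trav16n* with 12 each and *Trav7-5* with 11. In the smaller set *Trav16* was read in 5 cells and *Trav14d-3-dv8* and *Trav16n* in 3 each. In TGFβR-CA *Trav14n-3* led with 34 of 400 calls (8.50%, 5.96 to 11.7), followed by *Trav6-7-dv9* with 28, *Trav3-3* with 23, *Trav5-4* with 19 and *Trav14d-3-dv8* with 18. *Trav3-3* was thus among the 5 most used in TGFβR-KO, the larger set and TGFβR-CA. Over the 18 α segments above 0 in those 3 sets the Morisita index lay between 0.835 and 0.929, and over all α segments between 0.502 and 0.650.

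Of the 75 segments, 13 were above 0 in TGFβR-KO only, 9 in TGFβR-CA only and 2 in TGFβR-WT only. *Trav8n-2* stood apart among the 13, since the next of them, *Trav13-4-dv7*, was read in 22 cells and the others in 2 to 13. TGFβR-KO also had the most cells and the fewest of all genes listed at 0, 611 against 1837 in pooled TGFβR-WT and 1753 in TGFβR-CA. The share of all genes above 0 in only 1 condition was not counted. The segments with the fewest cells were at 1 cell in the larger set and at 2 in each of the others. The pseudogene *Trbv24* was read in 5 TGFβR-KO cells and the pseudogene *Trav8-2* in 27 TGFβR-KO and 6 TGFβR-CA cells.

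A segment was called higher or lower where its share of positive cells differed at least 1.5 times from both TGFβR-WT sets. Of the 75 members, 38 had the 20 positive cells over all cells that were asked for, and 7 of these were above 0 in both TGFβR-WT sets and had a ratio. Segments listed at 0 in either set, such as *Trav8n-2*, had no ratio and could not be called. In TGFβR-KO, 0 of the 7 were higher, where 2.79% of all 9813 genes with a ratio were called, and 2 were lower (*Trav14d-3-dv8* and *Trav16n*), where 6.62% of genes were. In TGFβR-CA, 5 of the 7 were higher (*Trav14d-3-dv8*, *Trbv2*, *Trbv12-2*, *Trbv13-2* and *Trbv31*), where 2.74% of genes were called, and 0 were lower, where 3.63% were. *Trbv31* was above 0 in 8.01% of TGFβR-CA cells, 3.24% of the larger and 0.671% of the smaller set, and 2.62% of TGFβR-KO cells. *Trav14d-3-dv8* was above 0 in 1.64% of TGFβR-CA cells, 0.987% and 1.01% of the TGFβR-WT sets, and 0.504% of TGFβR-KO cells, with overlapping intervals between TGFβR-KO and the larger set (0.282 to 0.830 and 0.398 to 2.02).

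Against the larger TGFβR-WT set alone, a comparison added after the data were seen, 28 members had a ratio, which again leaves out segments listed at 0 in that set such as *Trav8n-2*. In TGFβR-KO, 0 of the 28 were higher (7.11% of 10750 genes) and 15 were lower (12.4% of genes), and their median ratio was 0.638 against 0.965 for all genes. The intervals did not overlap for 4 of the 15, *Trav14-2* (0.605% of TGFβR-KO cells against 2.68%), *Trav5-1* (0.403% against 1.69%), *Trbv20* (1.14% against 3.81%) and *Trbv19* (1.24% against 3.24%). *Trav14-2* and *Trbv19* were also the pair of segments seen together most often in the larger set, in 4 cells. In TGFβR-CA, 11 were higher (10.9% of genes) and 5 lower (10.8% of genes), with a median ratio of 1.29 against 1.03 for all genes. Non-overlapping intervals were seen for *Trbv16* (3.37% of TGFβR-CA cells against 0.987%), *Trav14n-3* (3.097% against 0.987%), *Trbv31* (8.01% against 3.24%) and *Trbv3* (7.19% against 3.39%), all higher, and for *Trav14-2* (0.546% against 2.68%), which was lower. Overlap of intervals was not counted over all genes, so neither list has a background share beside it. The median ratio of the 13 β segments was 1.57 in TGFβR-CA and 0.772 in TGFβR-KO, and that of the 15 α segments was 1.08 and 0.626.

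Evenness was measured by the effective number of segments, the number of equally used segments that would give the same chance that 2 calls are of 1 segment. For the α chain it was 22.6 in TGFβR-KO (20.3 to 25.6), 19.4 in the larger TGFβR-WT set (16.7 to 23.2) and 29.7 in TGFβR-CA (26.3 to 34.0). Over the 18 α segments above 0 in those sets the order changed, with 13.4 in TGFβR-KO, 16.1 in pooled TGFβR-WT and 13.8 in TGFβR-CA. For the β chain the effective number was 9.27 in TGFβR-KO (8.65 to 10.0), 11.2 in the larger set (10.3 to 12.3) and 10.4 in TGFβR-CA (9.69 to 11.3). TGFβR-KO and the larger set did not overlap for the β chain, whereas pooled TGFβR-WT, at 10.2 (9.23 to 11.4), overlapped TGFβR-KO. With the 321 cells named CTL left out TGFβR-KO stood at 9.74 for the β chain and at 26.02 for the α chain. In the smaller set the β chain gave 3.74 from 34 calls of 5 listed segments.

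**Figure D2:**
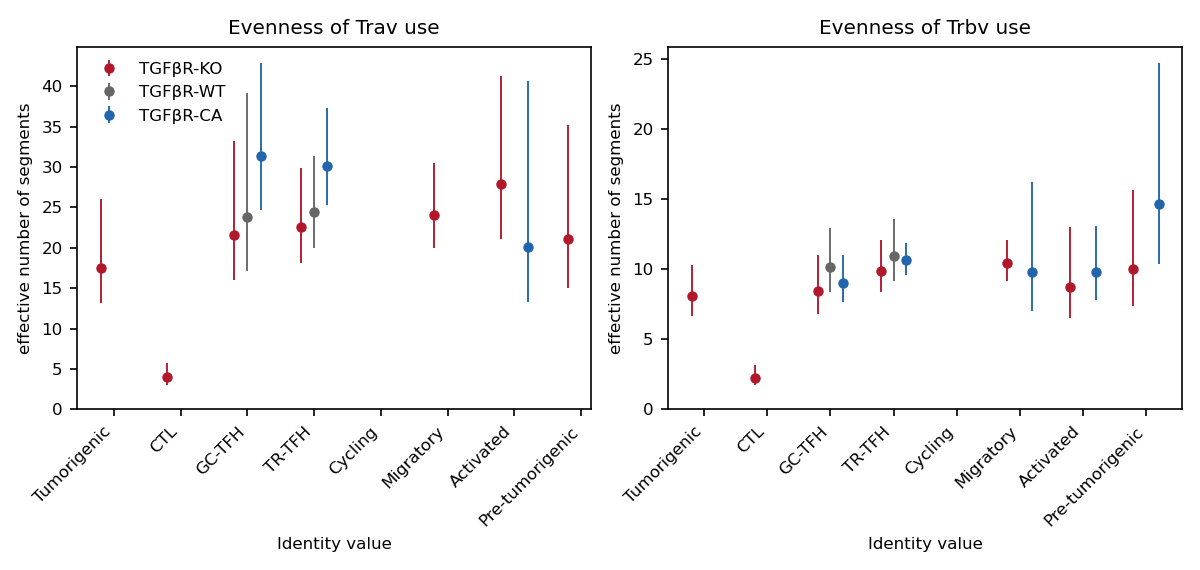
Effective number of α segments (left) and β segments (right) for each cell cluster with at least 30 positive cells, in TGFβR-KO, pooled TGFβR-WT and TGFβR-CA, as points with 95% intervals that cover counting error only. In TGFβR-KO, CTL cells lie at 3.95 for the α and 2.25 for the β chain, below every other cluster drawn.

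The authors grouped the cells into 8 clusters, and 1 of them used V segments far less evenly than the rest. The clusters were made from the same cells, and whether V segments were among the genes used is not given in the sources used here, so differences between clusters are descriptions. In TGFβR-KO the effective number of α segments was 3.95 in CTL (3.03 to 5.70), 17.4 in Tumorigenic (13.1 to 26.0), 21.0 in Pre-tumorigenic, 21.6 in germinal center TFH (GC-TFH), 22.6 in tissue-resident TFH (TR-TFH), 24.1 in Migratory and 27.9 in Activated cells. The β chain gave 2.25 in CTL (1.76 to 3.14) and 8.10 to 10.4 in the other 6 clusters with at least 30 positive cells. An α segment was read in 25.9% and a β segment in 24.9% of CTL cells, beside 23.7% and 24.6% of all TGFβR-KO cells. CTL cells numbered 13 in TGFβR-WT and 3 in TGFβR-CA, too few for an effective number, and in the 13 cells *Trav14-2* was 4 of 7 α calls and *Trbv19* was 3 of 4 β calls. In TGFβR-CA the α chain gave 31.3 in GC-TFH, 30.1 in TR-TFH and 20.1 in Activated cells, with overlapping intervals (24.7 to 42.9, 25.3 to 37.3 and 13.3 to 40.6).

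The most used segments of the other clusters took smaller shares. In TGFβR-KO, *Trav8n-2* and *Trbv3* also led in GC-TFH, with 12.4% of α and 22.6% of β calls. *Trav3-3* (10.7%) and *Trbv12-2* (20.1%) led in TR-TFH, *Trav6-7-dv9* (9.71%) and *Trbv2* (16.1%) in Migratory, *Trav7-5* (9.41%) and *Trbv2* (25.7%) in Activated, and *Trbv12-2* (22.0%) in Pre-tumorigenic cells, where *Trav16*, *Trav6-7-dv9* and *Trav8-2* were level at 6 cells (11.1% each). In pooled TGFβR-WT, *Trav13-1* (4 cells) and *Trbv13-2* (16.4%) led in GC-TFH, and *Trav16n* (7 cells) and *Trbv12-2* (17.9%) in TR-TFH. In TGFβR-CA, *Trav14n-3* (9.57%) and *Trbv12-2* (14.6%) led in TR-TFH. *Trbv31* led in GC-TFH with 20.4% of β calls, while *Trav14n-3*, *Trav3-3* and *Trav6-7-dv9* were level there at 8 cells (7.34% each). Among the clusters with at least 30 positive cells, the largest use outside CTL was thus the 25.7% of *Trbv2* in Activated TGFβR-KO cells.

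In TGFβR-KO cells named CTL, a cluster marked by cytotoxic genes, 3 segments took most of the calls. *Trbv3* was 54 of 82 β calls (65.9%, 54.6 to 76.0), *Trav8n-2* was 41 of 90 α calls (45.6%, 35.0 to 56.4) and *Trav2* was 18 (12.3% to 29.8%). The next in CTL were *Trbv2* and *Trav4-3* with 8 cells each. As a share of cells, *Trbv3* was above 0 in 16.8% of CTL cells (12.9 to 21.4) and 3.09% of other TGFβR-KO cells (2.46 to 3.82). *Trav8n-2* was above 0 in 12.8% of CTL cells (9.32 to 16.9) and 2.03% of the others (1.53 to 2.65). *Trav2*, the first listed segment of the α locus, was above 0 in 5.61% of CTL cells (3.36 to 8.72) and 0.603% of the others (0.345 to 0.977). Any of the 3 was read in 94 of 321 CTL cells (29.3%, 24.4 to 34.6), 10.1% of GC-TFH cells (6.99 to 13.9), 5.20% of TR-TFH cells and 2.77% to 5.19% of each of the other clusters.

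**Figure D3:**
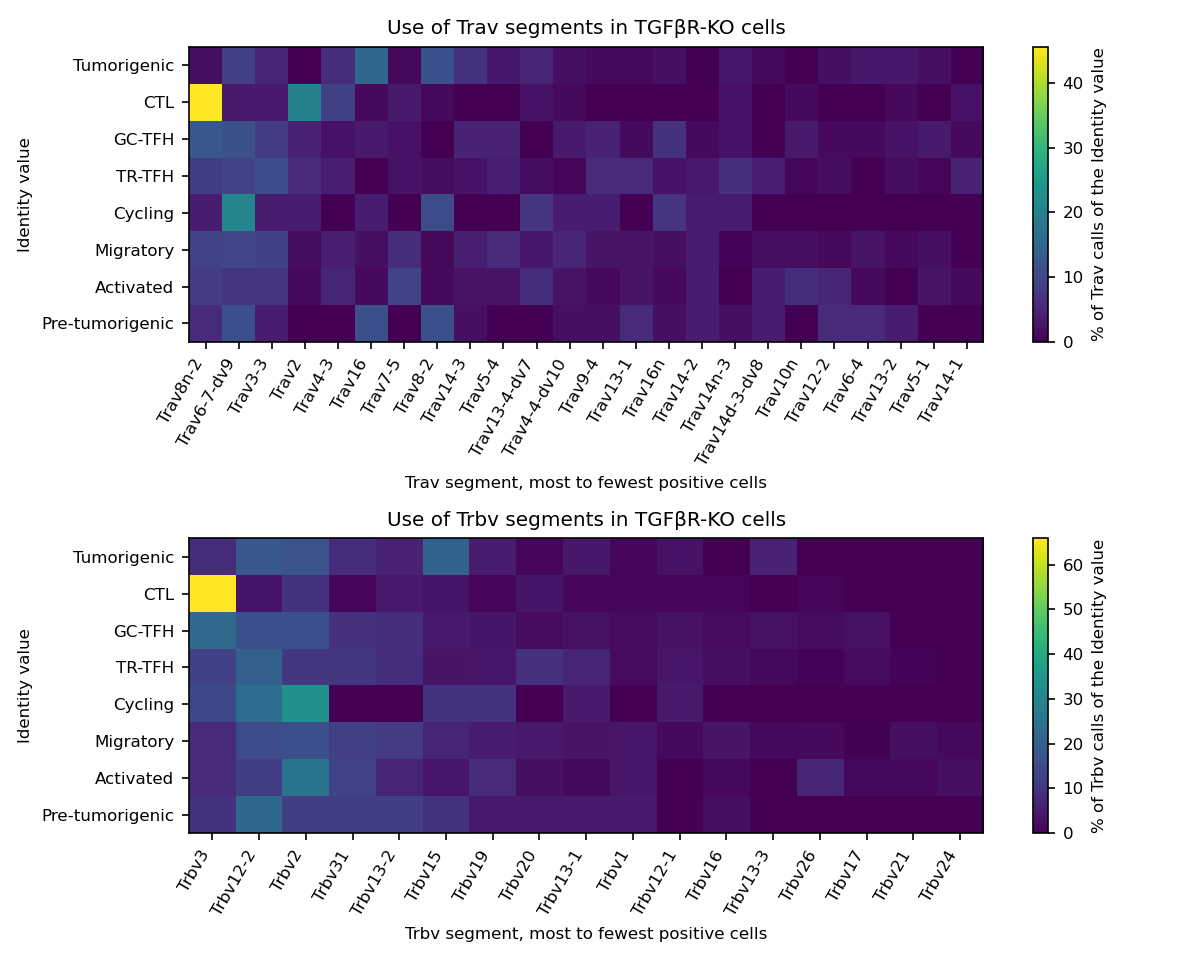
Use of V segments in TGFβR-KO (columns, from most to fewest positive cells) in each cluster (rows), as a percentage of the calls of the chain in that cluster, by color, with α segments above and β segments below. In the CTL row *Trbv3* takes 65.9% of β calls and *Trav8n-2* 45.6% of α calls, and in the Tumorigenic row *Trbv15* takes 21.1% and *Trav16* 15.4%.

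The 3 segments were read in the same cells. In TGFβR-KO, *Trav8n-2* and *Trbv3* were read together in 21 cells, where the product of their shares over all cells gives 4.34, *Trav2* and *Trbv3* in 14 cells (1.55) and both α segments in 11 cells (1.09). The segments also shared their place in CTL, and products formed within each cluster and summed were higher, at 8.81, 3.71 and 2.69. In CTL alone *Trav8n-2* and *Trbv3* were together in 10 cells, where the product gives 6.90, and outside CTL in 11 cells, where it gives 1.67. The joint reads were thus further above the product outside CTL than within it. Both segments were common in CTL, which raised the product there, so this difference does not compare how closely they were paired. Of the 29 cells outside CTL with *Trbv3* and any α segment, 16 held *Trav8n-2* or *Trav2* (55.2%, 35.7 to 73.6), against 5 of 155 cells with another β segment (3.23%, 1.06 to 7.37). In CTL, 15 of 17 such cells did. All of these pairs were chosen because they were the most frequent.

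Cells with at least 2 of the 3 segments were spread over several clusters. They numbered 38 in TGFβR-KO, of which 19 were CTL, 9 TR-TFH, 6 GC-TFH, 2 Activated, 1 Migratory and 1 Cycling, with 0 in Tumorigenic and 0 in Pre-tumorigenic cells. All 3 segments were read in 4 cells. In TGFβR-CA *Trav2* was above 0 in 4 cells, *Trbv3* in 79 and *Trav8n-2* in 0, and 0 cells held 2 of the 3 segments. Of the 28 TGFβR-CA cells with *Trbv3* and any α segment, 0 held *Trav2* or *Trav8n-2*. In TGFβR-WT both α segments were listed at 0, so no cell there could hold 2 of the 3. The 0 of 5 cells with *Trbv3* and any α segment in the larger TGFβR-WT set was fixed in the same way. These counts thus cannot tell whether the joint reads were particular to TGFβR-KO. *Trav2* and *Trav8n-2* lie 777839 bases apart.

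**Figure D4:**
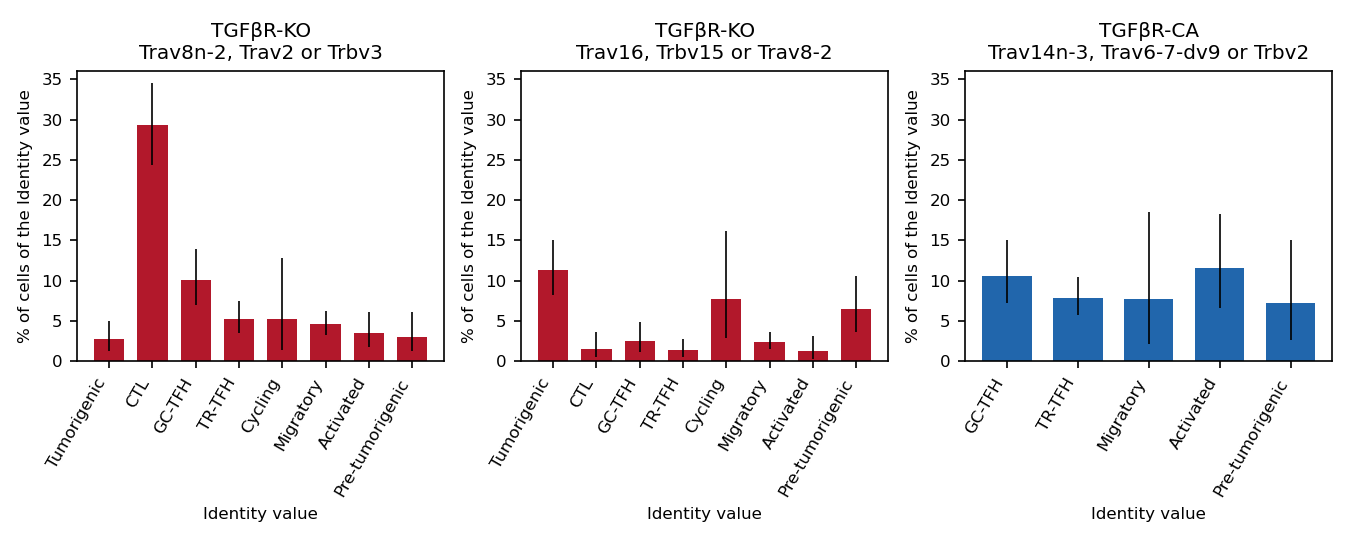
Percentage of cells in each cluster in which any segment of a set was read, with exact 95% intervals, for *Trav8n-2*, *Trav2* and *Trbv3* and for *Trav16*, *Trbv15* and *Trav8-2* in TGFβR-KO and for *Trav14n-3*, *Trav6-7-dv9* and *Trbv2* in TGFβR-CA. The first set reaches 29.3% in CTL, the second 11.4% in Tumorigenic cells, and the third lies between 7.23% and 11.5% in the 5 larger TGFβR-CA clusters.

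The β constant genes also differed with these segments. A rearranged β chain carries either *Trbc1* or *Trbc2*, which are near-identical in sequence, so that counts of both can be mixed. *Trbc1* was above 0 in 69.0% of all TGFβR-KO cells, 91.0% of CTL cells (87.3 to 93.9) and 51.0% of Tumorigenic cells (45.7 to 56.2). It was above 0 in 92 of 94 CTL cells with any of the 3 segments (97.9%, 92.5 to 99.7) and in 200 of 227 CTL cells with none read (88.1%, 83.2 to 92.0). Outside CTL it was above 0 in 19 of 19 cells with at least 2 of the segments (82.4 to 100). With 1 of them alone it was above 0 in 34 of 40 cells with *Trav8n-2* (85.0%) and 53 of 66 with *Trbv3* (80.3%). With none of them it was above 0 in 65.4% of cells outside CTL. *Trbc1* was above 0 in all 34 cells with *Trav2*, while *Trbc2* was above 0 in 26 of these (76.5%, 58.8 to 89.3). The other 2 segments did not share that low value, with *Trbc2* above 0 in 93.7% of *Trav8n-2* and 95.6% of *Trbv3* cells. Among all TGFβR-KO cells it was above 0 in 98.0%.

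Within CTL, cells with these segments also carried the cytotoxic transcripts. *Ccl5*, a chemokine of cytotoxic cells, was above 0 in 98.9% of the 94 cells with any of the 3 segments and 89.8% of the 49 CTL cells with other segments only, and *Nkg7*, a granule protein, in 89.4% and 89.8%. *Gzmb*, encoding granzyme B, was above 0 in 44.7% (34.4 to 55.3) against 26.5% (14.9 to 41.1), with overlapping intervals. These genes were chosen after the data were seen.

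Cells that the authors named Tumorigenic used another group of segments less strongly. *Trbv15* was 20 of 95 β calls (21.1%, 13.4 to 30.6), *Trav16* was 16 of 104 α calls (15.4%, 9.06 to 23.8) and the pseudogene *Trav8-2* was 12 (11.5%). *Trbv15* was above 0 in 5.54% of Tumorigenic and 1.42% of other TGFβR-KO cells, *Trav16* in 4.43% and 0.612%, and *Trav8-2* in 3.32% and 0.574%. Tumorigenic and Pre-tumorigenic cells together held 22 of the 32 cells with *Trav16* (68.8%) and 18 of the 27 with *Trav8-2* (66.7%). *Trav16* and *Trbv15* were read together in 7 TGFβR-KO cells, where the product of shares gives 0.613, of which 4 were Tumorigenic. Of the 10 cells with *Trav16* and any β segment, 7 held *Trbv15* (70.0%, 34.8 to 93.3), against 7 of 194 cells with other α segments (3.61%, 1.46 to 7.29). *Trav8-2* and *Trbv15* were together in 2 cells. In the larger TGFβR-WT set, *Trbv15* was above 0 in 2.96% of cells and *Trav16* was listed at 0. Its copy *Trav16n*, with 4 mismatches over 301 bases, was above 0 in 1.69% of cells of that set and 0.639% of TGFβR-KO cells. In the smaller set *Trav16*, its most used α segment, was above 0 in 1.68% of cells. Any of the 3 segments was read in 3.56% of all TGFβR-KO cells (2.93 to 4.29), 2.96% of the larger set (1.84 to 4.49), 1.68% of the smaller set (0.547 to 3.87) and 2.37% of TGFβR-CA cells (1.55 to 3.45). These intervals overlapped.

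α use in Tumorigenic cells was most like that in Pre-tumorigenic cells. The Morisita index between them was 0.972, while Tumorigenic cells reached 0.546 to 0.652 with GC-TFH, TR-TFH, Migratory and Activated cells and 0.156 with CTL. GC-TFH, TR-TFH, Migratory and Activated cells lay between 0.888 and 1.05 among themselves. CTL stayed at or below 0.513 with each of the other clusters for the α chain and at or below 0.640 for the β chain, and was closest to GC-TFH in both chains. For the β chain Tumorigenic cells reached 1.004 with Pre-tumorigenic cells and 0.845 to 0.909 with GC-TFH, TR-TFH, Migratory and Activated cells. Pre-tumorigenic β use, from 41 calls, gave higher values with Migratory (1.085) and TR-TFH cells (1.077) than with Tumorigenic cells.

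Tumorigenic cells with *Trav16*, *Trbv15* or *Trav8-2* carried 2 effector transcripts more often. *Ccl5* was above 0 in 73.2% of these 41 cells (57.1 to 85.8), 29.1% of the 110 Tumorigenic cells with other segments only (20.8 to 38.5) and 34.8% of the 210 with no segment read (28.3 to 41.6). *Nkg7* was above 0 in 82.9% (67.9 to 92.8), 46.4% (36.8 to 56.1) and 53.3% (46.3 to 60.2) of the same cells. *Ifng*, the defining cytokine of TH1 cells, was above 0 in 80.5% (65.1 to 91.2), 66.4% (56.7 to 75.1) and 52.9% (45.9 to 59.8). The intervals did not overlap for *Ccl5* and *Nkg7*, and for *Ifng* the cells with these segments overlapped those with other segments. Overlap between these groups was not counted over all genes, so the values have no background share beside them. The segments were chosen for their use in this same cluster. Cells of a pool are not replicates, and cells that share segments may descend from the same parent, so the intervals cover counting error only. The median cell held 3795, 4103.5 and 3790.5 corrected UMIs, whose part was not tested. These genes were chosen after the data were seen.

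TGFβR-CA cells had a group of jointly read segments of their own. *Trav6-7-dv9* and *Trbv2* were read together in 16 cells, where the product of shares gives 1.71, *Trav14n-3* and *Trav6-7-dv9* in 13 cells (0.867) and *Trav14n-3* and *Trbv2* in 12 cells (2.07). Of the 17 cells with *Trav6-7-dv9* and any β segment, 16 held *Trbv2* (94.1%, 71.3 to 99.9), against 14 of 153 cells with other α segments (9.15%, 5.09 to 14.9). All 3 segments were read in 9 cells, and at least 2 of them in 23 cells, of which 11 were TR-TFH, 7 GC-TFH, 4 Activated and 1 Pre-tumorigenic. Unlike the segments of CTL in TGFβR-KO, any of these 3 was read at a similar rate in each of the 5 larger clusters, from 7.23% of Pre-tumorigenic to 11.5% of Activated cells. In TGFβR-KO, where *Trav6-7-dv9* was above 0 in 72 and *Trbv2* in 124 cells, at least 2 of the 3 were read in 4 cells. In TGFβR-WT the count was 0, but *Trav6-7-dv9* was listed at 0 in both sets and *Trav14n-3* at 0 in the smaller set. Only *Trav14n-3* with *Trbv2* in the larger set could thus have been read together. *Trav6-7-dv9* was read with 2.50 corrected UMIs per positive cell in TGFβR-CA and 1.60 in TGFβR-KO. Other frequent TGFβR-CA pairs were *Trav13-1* with *Trbv3* in 7 cells (product 1.08), *Trav6d-4* with *Trbv19* in 6 cells (0.685), 5 of them TR-TFH, and *Trav7-6* with *Trbv3* in 6 cells (0.791), 5 of them Activated.

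Most other pairs were rare. TGFβR-KO held 131 different pairs of an α and a β segment, seen 242 times, TGFβR-CA held 117, seen 214 times, and the larger TGFβR-WT set held 57, seen 70 times. Pairs seen in at least 5 cells numbered 4 in TGFβR-KO, 6 in TGFβR-CA and 0 in the larger set. Beside those named above, they were *Trav14d-3-dv8* with *Trbv13-2* in 5 TGFβR-KO cells (product 0.343) and *Trav6n-6* with *Trbv16* in 5 TGFβR-CA cells (0.404). The most frequent pairs of the larger set after *Trav14-2* with *Trbv19* were *Trav5-1* and *Trav5-4*, each with *Trbv31*, in 3 cells each.

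Some cells held 2 or more segments of 1 chain. This was so for 75 of the 704 TGFβR-KO cells with an α segment (10.7%, 8.47 to 13.2), 53 of 344 TGFβR-CA cells (15.4%, 11.8 to 19.7) and 14 of 151 cells of the larger TGFβR-WT set (9.27%, 5.16 to 15.1), and for 57 of 732 TGFβR-KO cells with a β segment (7.79%), 51 of 536 TGFβR-CA cells (9.51%) and 17 of 219 cells of the larger set (7.76%). T cells often rearrange both α alleles, and droplets may hold more than 1 cell. Doublets were not called here, and their part was not tested.

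Segments read together often lay close to each other on the chromosome. Of the 94 joint reads of α segments in TGFβR-KO, 49 were of segments 1 to 4 places apart among those listed (52.1%, 41.6 to 62.5), where the products of shares place 17.4% of them. In TGFβR-CA it was 26 of 59 (44.1%, 31.2 to 57.6), where the products place 15.4%. In TGFβR-KO, *Trav3-3* and *Trav6-7-dv9*, 43396 bases apart, were together in 10 cells (product 1.36), and *Trav4-4-dv10* and *Trav6-7-dv9*, 25725 bases apart, in 8 cells (0.508). For the β chain, 28 of 51 joint reads in TGFβR-CA were of direct neighbours (54.9%, 40.3 to 68.9), where the products place 10.7%, and 18 of 61 in TGFβR-KO (29.5%, 18.5 to 42.6), where they place 13.2%. *Trbv12-2* and *Trbv13-2*, 2032 bases apart, accounted for 22 of the TGFβR-CA and 12 of the TGFβR-KO cells. *Trbv2* and *Trbv3*, only 295 bases apart, were together in 4 TGFβR-KO cells, below the product of 5.67, so not all close neighbours were read together. Within 1 to 4 places the β chain gave 36 of 51 joint reads in TGFβR-CA (70.6%, product 33.2%), 31 of 61 in TGFβR-KO (50.8%, 37.7 to 63.9, product 37.4%) and 6 of 21 in the larger TGFβR-WT set (28.6%, product 35.5%). In the larger set 3 of 21 β joint reads were of direct neighbours (14.3%, product 11.8%), and 5 of 14 α joint reads lay within 1 to 4 places (35.7%, product 16.3%).

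**Figure D5:**
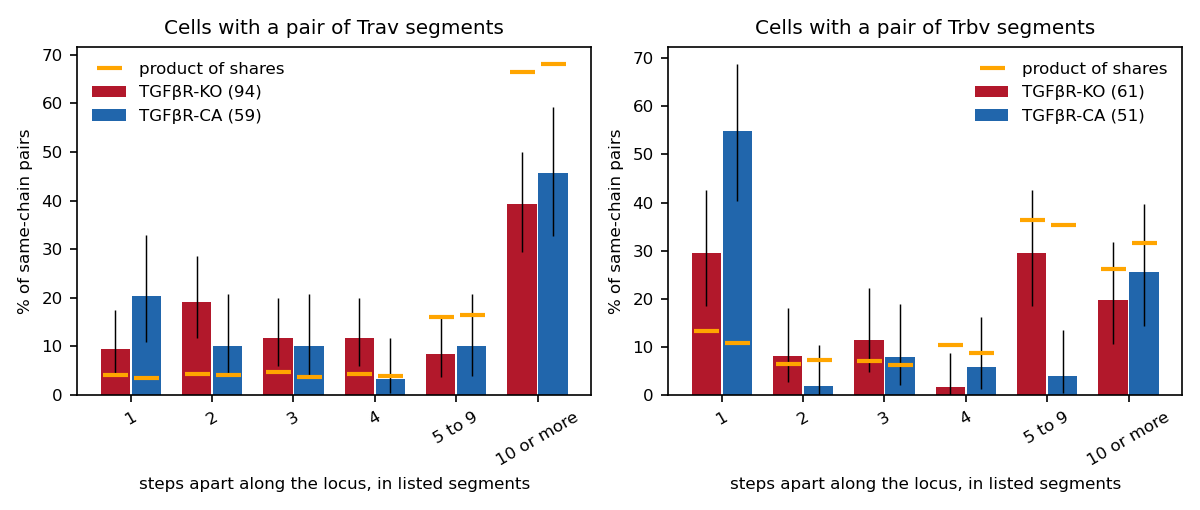
Percentage of joint reads of 2 segments of the same chain in a cell (bars, vertical axis) by their distance in listed segments along the locus (horizontal axis), for TGFβR-KO and TGFβR-CA, with exact 95% intervals and with α segments on the left and β segments on the right. Orange dashes mark the share that the products of the segments' shares give, and segments 1 to 4 places apart make up 52.1% of α joint reads in TGFβR-KO, where the products give 17.4%.

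*Lck*, *Zap70* and *Lat*, which carry the receptor's signal, were not read in the order of the V segments, unlike *Cd247* above. *Lck*, the kinase that starts TCR signaling, was above 0 in 69.8% of TGFβR-KO cells, 78.3% and 80.5% of the larger and smaller TGFβR-WT sets, and 79.7% of TGFβR-CA cells. *Zap70*, the kinase recruited to the phosphorylated CD3 chains, was above 0 in 50.2%, 53.3%, 65.1% and 60.7% of the same sets, and the adaptor *Lat* in 85.8%, 80.4%, 96.0% and 81.3%. The smaller TGFβR-WT set, lowest for V segments, was thus the highest of the 4 for all 3 genes.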

How the data were processed

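Droplet-based 3′ scRNA-seq was made from sorted YFP+CD4+ T cells of the small intestine. The authors aligned the reads to mm10 with Cell Ranger 3.1.0, per the labels, and used Seurat to filter, correct (SCTransform), integrate, cluster and name the cells, and they removed γδ T and epithelial cells. The deposited table holds the natural log of 1 plus corrected UMIs for 13265 genes and 5080 cells. Undone with expm1, all values above 0 were whole, but they are not raw counts, so the depth of a cell before correction is unknown and no count model was fitted. Cells were grouped by the condition in their names, where cells named R were taken as TGFβR-KO, whose title RKO no other cell name matched, and TGFβR-WT was also split by the ending of the name.

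A cell was positive for a segment above 0. Shares have exact Clopper-Pearson 95% intervals, and effective numbers are inverse unbiased Simpson indices with intervals of 1.96 standard errors, given for at least 30 positive cells. A ratio of 1.5 among genes with at least 20 positive cells was called. Both mutant conditions rest on a single sample and TGFβR-WT cells are not tied to their 2 samples, so no test was made. The members and lists were chosen with earlier results of these data known. Segments named in the text are the 5 most used per chain in each condition, those called, and the most used in each cluster. Named pairs are the 5 most frequent per condition. Other neighbouring segments and the effector genes were picked with their values in view. Alternatives changed the cutoff, the cells, the copies, the measure of evenness and the reference set. V exons were read from GRCm38 with GENCODE annotation. The calculations were tested on simulated data. Python 3.11.15, numpy 2.4.6, pandas 2.3.3, scipy 1.17.1 and matplotlib 3.10.9 were used. The sequence of 1 further segment is not reported here.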

Additional observations from a re-analysis of the deposited data

Results flagged for a closer look

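*Trav14d-3-dv8* lay on opposite sides of TGFβR-WT in the mutant conditions. Its share of positive cells was 0.511 times that of the larger TGFβR-WT set in TGFβR-KO and 1.66 times in TGFβR-CA, from 15 and 18 cells beside 7 cells of the larger and 3 of the smaller set, and the difference was not tested. It is 1 of the α segments with a near-identical copy in the table.

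Other rows of the TCR loci, outside the V segments of both chains, were above 0 more often in 1 condition than in either TGFβR-WT set. *Trdv1*, a V segment of the δ chain that lies at the downstream end of the α locus, was above 0 in 3.36% of TGFβR-KO cells, 0.846% of the larger TGFβR-WT set and 1.18% of TGFβR-CA cells, and was listed at 0 in the smaller set. In TGFβR-KO it was read in 8.49% of Activated cells (27 of 318, 5.67 to 12.1) and 3.85% of Migratory cells (32 of 831, 2.65 to 5.39), beside 1.87% of CTL and 0.943% of GC-TFH cells, while *Trdc* was above 0 in 0.471% of all TGFβR-KO cells. *Trbd2*, a D segment of the β chain, was above 0 in 4.10% of TGFβR-CA cells against 1.41% and 1.01% of the TGFβR-WT sets and 0.975% of TGFβR-KO cells. *Traj25*, a J segment of the α chain, was above 0 in 3.097% of TGFβR-CA cells (2.15 to 4.30), 0.987% of the larger TGFβR-WT set (0.398 to 2.02) and 1.18% of TGFβR-KO cells, and was listed at 0 in the smaller set.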

How the results depend on the processing

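Of 228 values under alternatives, 114 were on detection, evenness, calls and cells with *Trav8n-2* and *Trbv3*, and 114 on single segments, other pairs and other genes. Of these, 68 and 101 stayed within the counting interval of the main value, or for counts, calls and ratios within 1.5 times of it. The evenness of CTL and the count of cells with *Trav8n-2* and *Trbv3* were among those that stayed. Counting a cell from 2 corrected UMIs gave 5.01%, 3.77% and 10.0% of TGFβR-KO, pooled TGFβR-WT and TGFβR-CA cells with an α segment and 4.37%, 5.06% and 19.9% with a β segment. With only the segments above 0 in every set, added after the data were seen, these shares were 1.14%, 2.48% and 3.097%, and 13.6%, 15.6% and 25.7%. The larger TGFβR-WT set alone gave 21.3% and 30.9%, and the smaller 3.69% and 11.4%. The effective number of α segments moved to 15.9, 14.5 and 17.5 in TGFβR-KO, TGFβR-WT and TGFβR-CA with copies summed and to 13.4, 16.1 and 13.8 over segments above 0 in 3 sets (added later). With corrected UMIs it was 16.2 in TGFβR-WT and 24.7 in TGFβR-CA, without CTL cells (added later) 26.02 in TGFβR-KO, and in the smaller set alone 3.44 for the α and 3.74 for the β chain. The exponential of Shannon entropy gave 31.1 for the α chain in TGFβR-KO and 11.5 and 12.4 for the β chain in TGFβR-KO and TGFβR-CA. Pielou evenness was 0.898, 0.951 and 0.95 for the α chain and 0.861, 0.918 and 0.870 for the β chain. On its own scale it could not fall within the intervals of the effective number, so it counted as moved throughout. Segments called lower in TGFβR-KO numbered 1 at 50 positive cells, 0 at 2 times, 7 against pooled TGFβR-WT and 15 against the larger set alone (added later), and segments called higher numbered 3 against pooled TGFβR-WT. In TGFβR-CA, 1 was higher at 2 times, 19 against pooled TGFβR-WT and 11 against the larger set, and 3 and 5 were lower. The order of TGFβR-KO and pooled TGFβR-WT turned for the α share with only the segments above 0 in every set (23.7% against 16.1% before) and for the α effective number over segments above 0 in 3 sets (22.6 against 20.03 before). *Trbc1* over pooled TGFβR-WT went from 1.08 to 0.898 in TGFβR-KO and from 0.963 to 1.002 in TGFβR-CA with corrected UMIs in place of positive cells. The cause of these moves was not tested. No paired analysis was possible because both mutant conditions have a single sample and TGFβR-WT cells are not tied to their samples. With most positive values at 1 UMI, depth limits every count of joint reads.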

Other observations

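J segments of the α chain were read more often than V segments. Any of the 50 listed *Traj* rows was above 0 in 55.1% of TGFβR-KO cells (53.3 to 56.9), 60.6% of the larger TGFβR-WT set (56.9 to 64.3), 65.8% of the smaller set (60.1 to 71.1) and 54.3% of TGFβR-CA cells (51.3 to 57.3). The smaller set was thus highest here and lowest for V segments, and TGFβR-CA, highest for V segments, was level with TGFβR-KO. *Traj18*, the J segment of invariant natural killer T cells, was the most frequent row in every set, with 20.6%, 24.3%, 31.2% and 19.9% of cells. In the same sets *Zbtb16*, the transcription factor that defines these cells, was above 0 in 0.370%, 0.423%, 0.671% and 0.911% of cells. The other of the 2 listed markers of these cells was above 0 in 5.51%, 7.90%, 7.05% and 7.92%. For the β chain any of 14 *Trbj* rows was above 0 in 12.6%, 14.4%, 12.1% and 19.2% of cells, and *Trbj2-7* led in every set.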
